A study of Mus musculus with 2 samples.

Results

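The enzymes that build triglyceride, with Pnpla3 on the lipid droplet and Mttp in lipoprotein assembly, were followed in the livers of CREBH-Tg and WT mice. The 10 genes Gpam, Agpat2, Agpat3, Lpin1, Lpin2, Dgat1, Dgat2, Mogat1, Pnpla3 and Mttp were taken by their role in this pathway, as the probes whose transcript accession belongs to one of them. All 10 were among the 20660 named genes with a probe and among the 13881 well above background on both arrays, and no member was lost to the filter on dim probes. They had 12 probes, 2 each for Lpin1 and Pnpla3 and 1 for each of the other 8 genes, and every probe was spotted once. CREBH-Tg mice overexpress a cDNA of the active form of human CREBH, mainly in the liver, and the WT mice were C57B6J, which the labels also give as the background of the CREBH-Tg mice. Both had been fed the diet that the labels call HFHS for 12 weeks. The liver RNA of each genotype was a pool, hybridised to 1 one-colour Agilent array. The age and sex of the mice and the number in each pool are not given in the sources used here, so any difference below rests on 1 pool against 1 pool and was not tested against the spread between animals. The level of the human transgene was not checked here: the mouse gene Creb3l3, whose probe was designed on the mouse transcript, had a log2 ratio of CREBH-Tg over WT of -0.0053.

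Hepatic triglyceride is made mainly by acylation of glycerol 3-phosphate. Glycerol-3-phosphate acyltransferases (Gpam is the mitochondrial isoenzyme) give lysophosphatidate, the AGPAT enzymes add a second acyl chain to give phosphatidate, lipins remove the phosphate to give diacylglycerol, and DGAT enzymes add the last chain. Mogat1 makes diacylglycerol by another route, from monoacylglycerol. Mttp loads triglyceride onto apolipoprotein B in the endoplasmic reticulum for secretion as very low density lipoprotein (VLDL), and Pnpla3 encodes a patatin-family protein on lipid droplets. CREBH is a transcription factor of the CREB3 family that is held in the endoplasmic reticulum membrane and released by proteolysis.

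Triglyceride synthesis genes were mostly close to equal between CREBH-Tg and WT liver, and none of the 10 was 2-fold apart. Mogat1 was lowest, 1.95-fold lower in CREBH-Tg liver, followed by Gpam, 1.40-fold lower. Lpin1 and Lpin2 were lower by 1.14-fold and 1.12-fold, Agpat3 was 1.21-fold higher, and Agpat2, Dgat1, Dgat2, Mttp and the brighter Pnpla3 probe differed by no more than the noise between repeated spots. Log2 ratios of CREBH-Tg over WT ran from -0.96 to 0.27 with a median of -0.11, against 0.026 over all 13881 genes. Below 0 lay 7 of the 10, where 44.0% of all genes (6114 of 13881) did. This count was 5 with the arrays scaled to their medians, where 3696 of the 13881 genes lay below 0. With normexp background correction it was 8, where 5927 of the 13881 did.

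The size of these differences was read against 2 measures. At least 2-fold higher were 0 of the 10, against 0.663% of all genes, and at least 2-fold lower 0 of the 10, against 0.670%. At 1.5-fold, none was higher (2.31% of all genes) and 1, Mogat1, was lower (2.23%). The other measure was spot noise, the 95% range of single-spot log2 ratios among 276 probes spotted at least 5 times, taken separately for 3 equal-sized groups of genes ranked by brightness. It came to 0.39 for the dimmest, 0.17 for the middle and 0.095 for the brightest. Beyond this range, 4 members were lower (Gpam, Lpin1, Lpin2 and Mogat1), where 13.4% of all genes were, and 1 was higher (Agpat3), where 20.9% were. Spot noise leaves out animals, pools, labelling and hybridisation, so it is a lower limit of the error. The error that Feature Extraction assigns to each signal came to 0.20 to 0.27 on the log2 ratio, as 1 error and not a 95% range. More than 2 such errors from 0 lay 2 of the 10 members, Mogat1 and Gpam.

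**Figure D1:**
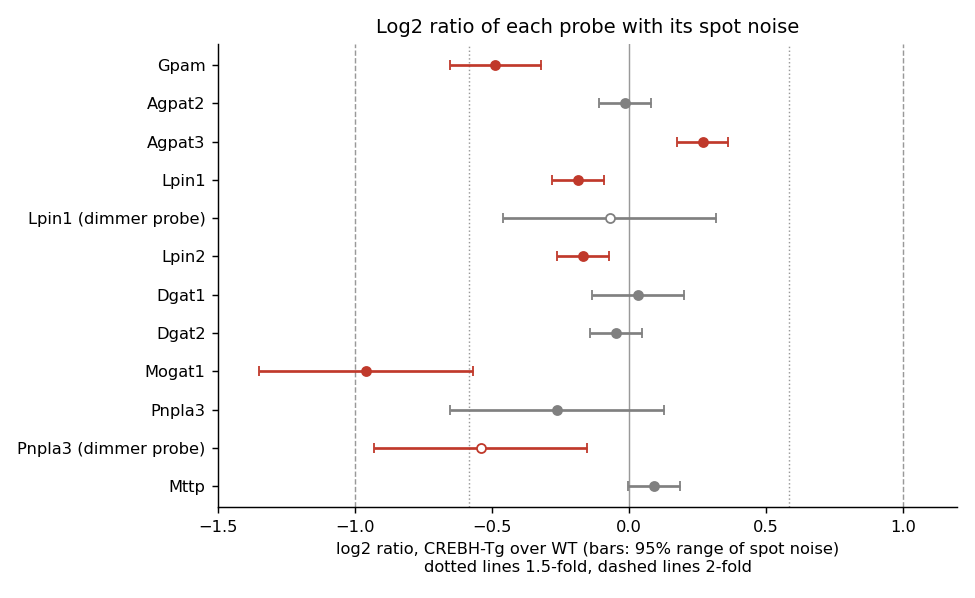
Log2 ratio of CREBH-Tg over WT (x axis) for the 12 probes of the 10 genes (y axis), with bars for the 95% range of spot noise in the probe's class of signal. Open points are the dimmer second probes, and red marks a ratio beyond spot noise. Mogat1 and Gpam lie farthest to the left at -0.96 and -0.49 among the brighter probes, and Agpat3 farthest to the right at 0.27.

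Promoter sequence is shown for the 3 members with the lowest ratios, Mogat1, Gpam and Pnpla3, and for the stretches of Lpin2 and Mttp in which a searched motif was found. Windows run from 250 bases before to 50 bases after each RefSeq start on GRCm38.p6, and 8 of the 10 genes matched, with 11 windows. Capitals mark matches on either strand to the cAMP response element (CRE) TGACGTCA, the core motif bound by CREB and CREB3 family factors, its core TGACG or the E-box CACGTG.
Mogat1, chr1:78510810-78511109, plus strand: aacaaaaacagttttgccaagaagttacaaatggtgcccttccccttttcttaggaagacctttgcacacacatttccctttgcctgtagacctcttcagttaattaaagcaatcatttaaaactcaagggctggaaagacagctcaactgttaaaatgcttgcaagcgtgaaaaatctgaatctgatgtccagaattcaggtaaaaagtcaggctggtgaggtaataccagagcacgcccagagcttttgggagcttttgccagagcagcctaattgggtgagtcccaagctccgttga
Gpam upstream start, chr19:55127189-55127488, minus strand: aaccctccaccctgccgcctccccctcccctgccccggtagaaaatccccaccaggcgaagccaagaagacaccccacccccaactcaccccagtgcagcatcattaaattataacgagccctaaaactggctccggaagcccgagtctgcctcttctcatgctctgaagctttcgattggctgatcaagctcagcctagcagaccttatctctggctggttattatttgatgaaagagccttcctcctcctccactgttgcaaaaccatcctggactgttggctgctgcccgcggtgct
Gpam downstream start, chr19:55099428-55099727, minus strand: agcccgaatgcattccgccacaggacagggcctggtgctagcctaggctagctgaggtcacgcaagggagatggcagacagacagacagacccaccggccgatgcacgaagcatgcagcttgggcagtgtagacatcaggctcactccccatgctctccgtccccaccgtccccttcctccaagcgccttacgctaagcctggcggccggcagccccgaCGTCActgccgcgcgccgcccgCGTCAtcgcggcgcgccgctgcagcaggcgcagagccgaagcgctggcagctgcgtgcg
Pnpla3, chr15:84167566-84167865, plus strand: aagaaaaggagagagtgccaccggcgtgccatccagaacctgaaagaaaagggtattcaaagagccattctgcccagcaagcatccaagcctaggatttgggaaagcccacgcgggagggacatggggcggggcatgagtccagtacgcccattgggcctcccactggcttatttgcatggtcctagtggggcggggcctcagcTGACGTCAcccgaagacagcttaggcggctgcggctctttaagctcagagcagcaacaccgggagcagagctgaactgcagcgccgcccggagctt
Lpin2 first start, stretch, chr17:71183500-71183548, plus strand: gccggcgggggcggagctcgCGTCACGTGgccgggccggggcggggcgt
Mttp stretch, chr3:138143422-138143466, minus strand: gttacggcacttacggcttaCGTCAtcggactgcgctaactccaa

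Pnpla3 held the 1 full CRE among these windows, with its first base 46 bases before the start; the core inside it matched on both strands. A full CRE was found in 1.79% of all 32851 windows in the table. The core, found in 20.8% of all windows, stood alone in the downstream Gpam window, 31 and 9 bases before the start, and in the Mttp window, 28 bases before it. In the first Lpin2 window a core 12 bases before the start overlapped an E-box, a motif in 7.15% of windows. The Mogat1 window, the upstream Gpam window, the other 2 Lpin2 windows and those of Agpat2, Agpat3 and Lpin1 held none of the motifs searched. The search also covered the unfolded protein response element TGACGTGG (0.676% of all windows), the sterol response element TCACNCCAC (1.24%), the ER stress response element, which is CCAAT and CCACG with 9 bases between (0.119%), and the direct repeat 1 of AGGTCA with 1 base between (0.0396%), and found none of these 4 in the 11 windows. A match is a description of the letters, and binding was not measured.

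The first acylation step held the lowest ratio among the 8 members outside the dimmest class. Gpam had a processed intensity of 354 in CREBH-Tg liver and 535 in WT liver, or log2 signals of 0.20 and 0.69 relative to each array's 75th percentile. Intensities of genes here and below are before this scaling, while their log2 ratios and fold differences are after it. The Gpam ratio of -0.49 was as low in 1.28% of the 4627 genes of its class of signal. Of the other glycerol-3-phosphate acyltransferases, Gpat4 and Gpat2 lay above 0, at log2 ratios of 0.21 and 0.20, and Gpat3 at 0.12 was within spot noise. Gpam thus stood 0.61 to 0.70 below these 3 isoenzymes on the log2 ratio scale, beyond the combined spot noise of each pair, which was 0.19 to 0.24.

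At the next acylation, Agpat3 was higher and Agpat2 about equal. Agpat3 had an intensity of 15112 in CREBH-Tg liver, against 13511 in WT liver, and its log2 ratio of 0.27 was as high in 7.26% of its class. Agpat2, the isoenzyme lost in one form of inherited lipodystrophy, gave 7203 in CREBH-Tg liver and 7834 in WT liver before scaling. Its log2 ratio was -0.013, and 0.076 with the arrays scaled to their medians. The ratio of Agpat3 exceeded that of Agpat2 by 0.28, with a combined spot noise of 0.13. The Feature Extraction error on each of these ratios was 0.20, and Agpat3 lay within 2 such errors of 0. Of the 7 further GPAT and AGPAT genes, 2 were higher and 1 lower by more than spot noise, beside 20.9% and 13.4% of all genes, and none reached 1.5-fold. The farthest from 0 was Lclat1, an acyltransferase acting on lysophospholipids such as lysocardiolipin, at -0.28.

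Both lipins were slightly lower. Lpin1, which also acts in the nucleus as a coactivator of fatty acid oxidation genes, had an intensity of 2421 in CREBH-Tg liver and 2965 in WT liver at its brighter probe, a log2 ratio of -0.19. Its dimmer probe gave 89.9 in CREBH-Tg liver and 102 in WT liver, and the ratio there, -0.071, was within the spot noise of 0.39. Lpin2, a lipin phosphatase abundant in liver, had 3476 in CREBH-Tg liver and 4203 in WT liver, a log2 ratio of -0.17. The ratios of Lpin1 and Lpin2 differed by 0.019, less than their combined spot noise of 0.13. With the arrays scaled to their medians Lpin2 was at -0.077, within spot noise. Lpin3 was at -0.31, beyond the spot noise of 0.17 in its class.

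**Figure D2:**
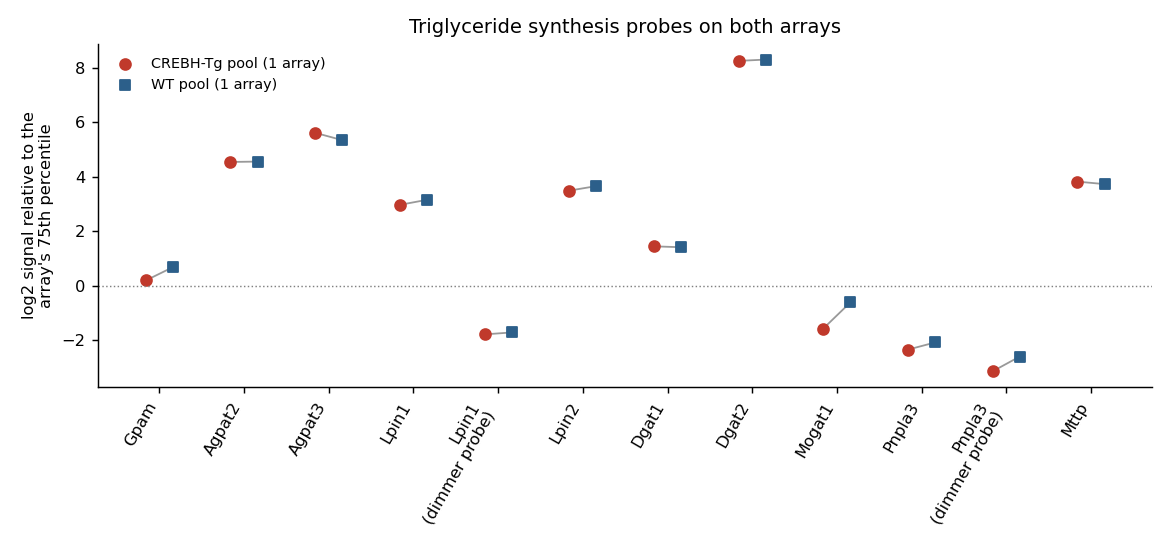
Log2 signal relative to each array's 75th percentile (y axis) for the 12 probes (x axis), with the CREBH-Tg pool as circles on the left of each pair and the WT pool as squares on the right, 1 array each. Heights of different probes are not comparable, since probes differ in affinity. Mogat1 shows the steepest line, at -1.57 in CREBH-Tg and -0.60 in WT liver, and the lines of Dgat1, Dgat2 and Agpat2 are nearly flat.

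The last step, from diacylglycerol to triglyceride, did not differ by more than spot noise. Dgat1 had an intensity of 843 in CREBH-Tg liver and 888 in WT liver before scaling. Its log2 ratio after scaling was 0.033, and -0.0050 with normexp. Dgat2 was a bright and unsaturated probe, at 94068 in CREBH-Tg liver and 104796 in WT liver. Its log2 ratio was -0.048, with 0.042 under median scaling, -0.15 after quantile normalization and -0.15 after loess. The last 2 values were beyond spot noise, so the scaling decided whether Dgat2 passed it. The value under median scaling was the only one above 0, and it was within spot noise.

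The monoacylglycerol route carried the largest difference of the 10 genes. Mogat1, the monoacylglycerol acyltransferase known to rise in fatty mouse liver, had an intensity of 104 in CREBH-Tg liver and 219 in WT liver. Its spot had a median pixel of 154 over a local background of 59 on the CREBH-Tg array and of 278 over 53 on the WT array, so the probe was dim but clear of background on both. The log2 ratio was -0.96, with 95% spot noise limits of -1.35 and -0.57, and 1.90% of the 4627 genes of the dimmest class were as low. Normexp, whose added offset of 50 draws the ratios of dim probes towards 0, gave -0.68. Mogat2, which is better known from the intestine, was at -0.34, within the spot noise of its dim class, and the difference between both Mogat genes, -0.62, was just past their combined spot noise of 0.55. Pparg, the nuclear receptor known to drive Mogat1 in mouse liver, had a log2 ratio of 0.28, and whether it bears on the Mogat1 ratio was not tested.

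Pnpla3 was measured near the lower end of the arrays. The brighter of its probes had an intensity of 61.1 in CREBH-Tg liver and 78.9 in WT liver, a log2 ratio of -0.26 that was within spot noise. The dimmer probe had 35.2 in CREBH-Tg liver and 55.2 in WT liver, and its ratio of -0.54 was beyond spot noise. Both probes were lower in CREBH-Tg liver, and with normexp the brighter one was at -0.058, so whether Pnpla3 lay beyond spot noise depended on the probe, and the size of its ratio on the background correction. Srebf1 and Mlxipl encode SREBP1 and ChREBP, the sterol-regulated and carbohydrate-responsive factors known to act on Pnpla3 and Gpam. Their log2 ratios were -0.34 and -0.31, both beyond the spot noise of 0.095. Whether they bear on the ratios of Pnpla3 and Gpam was not tested.

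Mttp, the microsomal transfer protein, was about equal, at 4371 in CREBH-Tg liver and 4419 in WT liver before scaling. Its log2 ratio of 0.092 lay just inside the spot noise of 0.095, and it was 0.18 under median scaling and 0.11 with normexp, both beyond spot noise. Apob, the protein that Mttp loads, had a ratio of -0.14 at its brighter probe. Its other probe gave -0.062, within spot noise. Over the 12 genes of VLDL assembly the median log2 ratio was 0.10 with 3 of 12 below 0, against 44.0% of all genes. By more than spot noise 5 of the 12 were higher, against 20.9% of all genes. Lower was 1, Apob at its brighter probe alone, against 13.4%. The farthest of the 12 was P4hb, protein disulphide isomerase and the other subunit of the Mttp complex, 1.19-fold higher. Most of the 12 were in the brightest class, so the shares of all genes are a loose comparison. In that class 36.5% of genes were as high as Mttp, and 30.8% were as low as Agpat2 at -0.013.

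**Figure D3:**
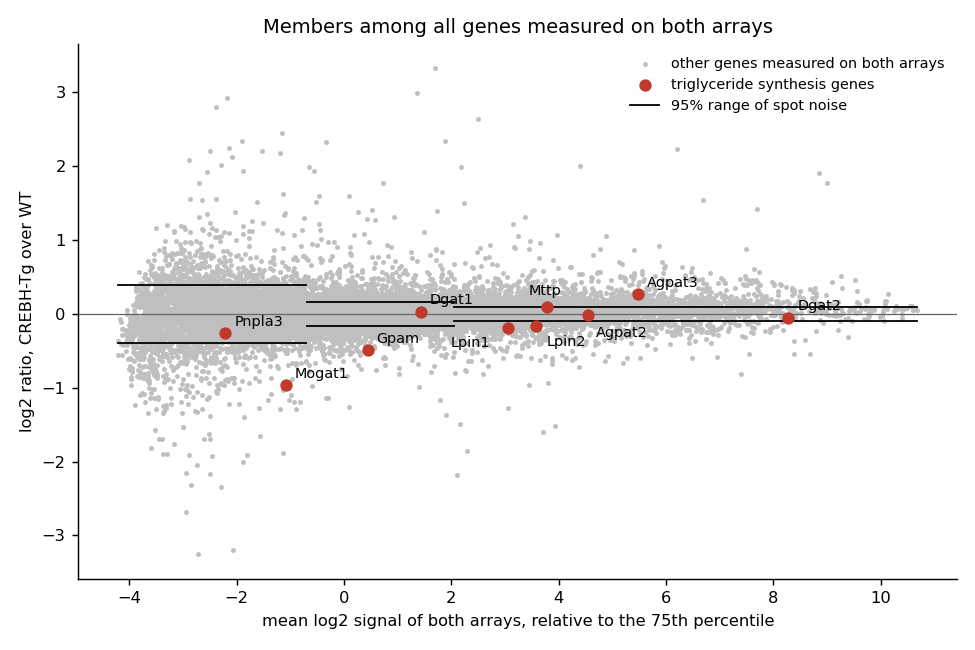
Log2 ratio of CREBH-Tg over WT (y axis) against the mean log2 signal of both arrays (x axis) for the 13881 genes, with the 10 members in red and black lines at the 95% range of spot noise in each of the 3 classes. Mogat1 and Pnpla3 lie in the dimmest class, Gpam and Dgat1 in the middle class and the other 6 in the brightest. Apart from Mogat1 and Gpam, the members lie within the main band of genes.

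Genes around the pathway were set beside the members from 8 lists holding 89 genes, of which 85 were measured. Across the 8, 1 gene was at least 1.5-fold higher, against 2.31% of all genes, and 0 were at least 1.5-fold lower, against 2.23%. That gene was G0s2, the inhibitor of the triglyceride lipase ATGL, 1.56-fold higher after scaling. Its intensities before scaling were 7185 in CREBH-Tg liver and 4970 in WT liver. Of the 16 genes of the patatin family and lipolysis, 6 were higher and 3 lower by more than spot noise, against 20.9% and 13.4% of all genes, and their median log2 ratio was -0.027. Pnpla2, which encodes ATGL itself, was at 0.12, and the lysosomal lipase Lipa at 0.36. On the other side lay the liver carboxylesterases Ces1g, lowest of the list at -0.43, and Ces1f at -0.22. The carboxylesterase Ces1d, at -0.047, was within spot noise.

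Substrate supply differed little. The 6 measured genes of glycerol 3-phosphate supply had a median log2 ratio of 0.050, and Gpd2, the mitochondrial glycerol-3-phosphate dehydrogenase, was farthest from 0 at -0.27. The 9 measured genes of acyl-CoA supply had a median of -0.032, with the fatty acid transporter and acyl-CoA synthetase Slc27a2 farthest at 0.24. The branch from phosphatidate and diacylglycerol to phospholipids had a median of 0.024 over 12 genes, with 3 higher and 3 lower by more than spot noise (20.9% and 13.4% of all genes). Its farthest member was Chka, a choline kinase, at 0.25. The 4 measured genes of the remaining lipin, DGAT and MOGAT list had a median of -0.11 and Mogat2 farthest from 0. The 7 further acyltransferases had a median of -0.031. Another scaling turned the sign of the median for acyl-CoA supply (0.057 under median scaling), the acyltransferases (0.059), lipolysis (0.062) and the phospholipid branch (-0.031 after loess).

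Among 19 regulators, 5 were higher and 6 lower by more than spot noise, where 20.9% and 13.4% of all genes were, and the median was -0.0053 (0.085 under median scaling). The farthest from 0 was Ppargc1a, the coactivator PGC-1 alpha that partners Lpin1, 1.34-fold lower, with both its probes between -0.44 and -0.42. Genes named here beside the members for their roles, namely Gpat2, Gpat3, Gpat4, Lpin3, Pparg, Srebf1, Mlxipl, Apob, Pnpla2, Lipa, Ces1g, Ces1f and Ces1d, were chosen after their values were seen.

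**Figure D4:**
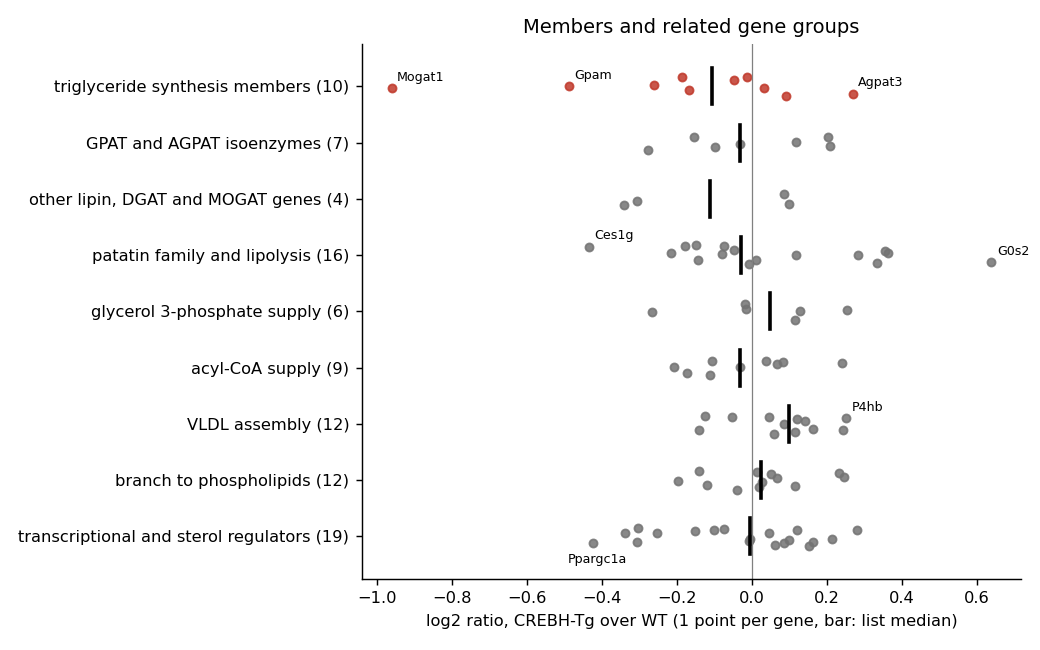
Log2 ratio of CREBH-Tg over WT (x axis) for the 10 members and for 8 lists of related genes (y axis, number measured in brackets), 1 point per gene, with vertical scatter added and a bar at each median. Mogat1 at -0.96 lies farther from 0 than every gene of the lists, and G0s2 at 0.64 is the highest.

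Markers of the tissue were measured on both arrays. All 10 hepatocyte markers were well above background, with a median log2 ratio of 0.055 and a summed signal of 7134 in CREBH-Tg and 6905 in WT liver, in units of each array's 75th percentile. By more than spot noise 2 of the 10 were higher, against 20.9% of all genes, and 2 lower, against 13.4%. The higher were Apoa1 at 0.35 and Hnf4a at 0.099, the lower Ass1 at -0.21 and Cps1 at -0.11. Of 9 adipocyte markers, a cell type rich in Agpat2 and Dgat2, 7 were measured. Among these, 4 were higher by more than spot noise, against 20.9% of all genes, and 2 were lower, against 13.4%. The median over the 7 was 0.28 on the log2 scale. Adipoq, which encodes adiponectin, was 4.61-fold higher, at an intensity of 117 in CREBH-Tg liver and 27.4 in WT liver. Retn, which encodes resistin, was 2.93-fold higher, at 102 in CREBH-Tg liver and 37.4 in WT liver. Cfd was 1.30-fold higher, while Cidea, a lipid droplet protein, was 3.67-fold lower. Car3, which hepatocytes also express, was 1.45-fold lower, Pparg was 1.22-fold higher, and Lipe at -0.073 was within spot noise. Summed signals of the 7 were 353 in CREBH-Tg and 507 in WT liver, most of them from Car3. Lep and Plin1 passed the background flag in CREBH-Tg liver alone, at dim probes, and so are outside these counts. Of 8 enterocyte markers, a cell type rich in Mttp and Mogat2, 4 were measured, with sums of 315 in CREBH-Tg and 159 in WT liver, nearly all from Fabp2 and from Apoa4, which mouse liver also makes and which was 4.69-fold higher. By more than spot noise 3 of the 4 were higher, against 20.9% of all genes, and 1 lower, against 13.4%. The lower one, Sis, was 1.75-fold lower at a dim probe, with 17.9 in CREBH-Tg liver and 33.8 in WT liver. Neither array had Cdh17, Lct or Alpi well above background, and Vil1 passed in CREBH-Tg liver alone. The 7 measured macrophage markers summed to 153 in CREBH-Tg and 169 in WT liver, with 6 of 7 below 0, against 44.0% of all genes. By more than spot noise 2 were lower, against 13.4% of all genes, and 0 were higher, against 20.9%. These were Marco, a scavenger receptor, 1.94-fold lower at 2423 in CREBH-Tg liver and 5062 in WT liver, and Adgre1, which encodes F4/80, at -0.33. The other measured macrophage markers, namely Clec4f, Csf1r, Cd5l, Vsig4 and Timd4, were within spot noise. The 6 endothelial markers summed to 120 in CREBH-Tg and 109 in WT liver. By more than spot noise 2 of the 6, Clec4g at 0.25 and Stab1 at 0.11, were higher, against 20.9% of all genes. Lower was 1, Lyve1 at -0.34, against 13.4%. The 4 measured cholangiocyte markers had a median log2 ratio of -0.34, with 2 lower by more than spot noise, against 13.4% of all genes. These were Spp1 at -0.51 and Krt7 at -0.54, the latter dim at 22.9 in CREBH-Tg liver and 35.9 in WT liver. Krt19 at 0.027 and Sox9 at -0.17 were within spot noise. Markers named singly were chosen after their values were seen. The part of other cells in the member ratios was not tested, and in bulk RNA fewer cells of a type cannot be told apart from less RNA per cell.

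**Figure D5:**
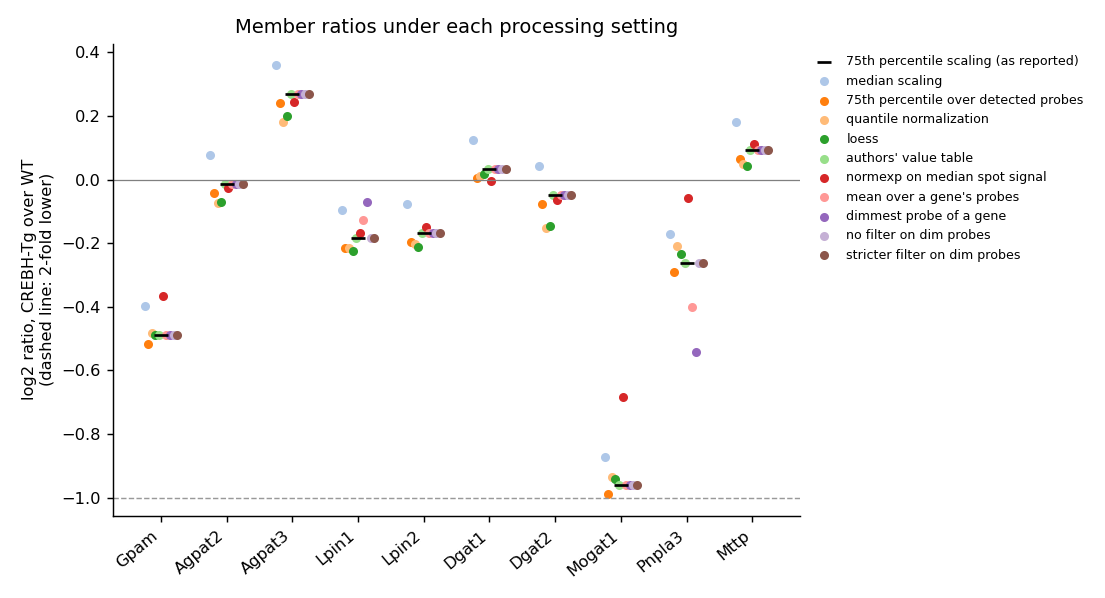
Log2 ratio of CREBH-Tg over WT (y axis) for each of the 10 genes (x axis) as reported (black dash) and under 10 other processing settings (coloured points), with a dashed line at 2-fold lower. Mogat1 stays between -0.99 and -0.68 and Gpam between -0.52 and -0.37, while the points of Agpat2, Dgat1 and Dgat2 fall on both sides of 0.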

How the data were processed

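Liver RNA of 1 CREBH-Tg pool and 1 WT pool was measured on 2 one-colour arrays from 0.1 µg of RNA, per the labels. Per the file headers, the authors deposited processed intensity values, linear and not logged, from Agilent Feature Extraction 10.10.1.1, background-subtracted and detrended within each array. The authors' value table is the same intensity times 1 constant per array, 2.68 for CREBH-Tg and 2.59 for WT, by a rule not given in the sources used here. Its column medians were 81.0 for CREBH-Tg and 89.8 for WT.

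Log2 signals were set relative to each array's 75th percentile over non-control spots, 309 for CREBH-Tg and 333 for WT. Of the 59305 non-control spots per array, 58.3% passed the well-above-background flag for CREBH-Tg and 55.4% for WT, and 0 were saturated on either. The 300 spots flagged as outliers on either array were dropped. Repeated spots of a probe were averaged, and the brightest probe above background on both arrays stood for its gene. A probe counted as above background where over 50% of its spots were. Accessions matched to RefSeq GRCm38.p6 named 27233 of 55677 probes, since gene names from the array design were not used here. With 1 array per group there is no test and no p-value, and the number of arrays limits the precision. The ratio and noise steps were tested on simulated data.

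The members and lists were chosen with earlier results of these data known. Named genes were all members and, in each list, up to 4 genes at least 1.5-fold apart or else the gene farthest from 0. The 10 alternatives changed the scaling (median, detected probes, quantile, or loess with a span of 0.3), the starting values (the authors' table, or normexp with an offset of 50 on the median spot signal), the probe standing for a gene (mean or dimmest) and the filter on dim probes (none, or the upper 50% of signals). Python 3.11.15, numpy 2.4.6, pandas 2.3.3, matplotlib 3.10.9, R 4.3.3 and limma 3.58.1 were used.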

Additional observations from a re-analysis of the deposited data

How the results depend on the processing

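Under the 10 alternatives, no member reached 2-fold in either direction, and Mogat1 was in each the 1 member at least 1.5-fold lower. Gpam, Lpin1, Lpin2, Mogat1 and Pnpla3 had ratios below 0 and Agpat3 and Mttp above 0 under all 10, while Agpat2, Dgat1 and Dgat2 took both signs. Members higher by more than spot noise numbered 2 under median scaling and 2 with normexp, against 1 as reported, because Mttp joined Agpat3. Of all 13881 genes, 5213 were higher under median scaling and 2587 with normexp, against 2899 as reported. Members lower by more than spot noise numbered 3 under median scaling, where 1020 of all genes were, against 4 and 1866 as reported. They numbered 5 after quantile normalization and after loess, where 2158 and 2207 of all genes were. With the dimmer probe or the mean over probes, Pnpla3 took the place of Lpin1 among the lower members. The median of the remaining lipin, DGAT and MOGAT list was 0.086 with no filter on dim probes, against -0.11 as reported, since Dgat2l6, which passed the background flag in CREBH-Tg liver alone, then entered. The members' median ran from -0.18 to -0.017. Over all genes, 92 were 2-fold higher and 93 lower as reported, with 42 and 16 under normexp, 76 and 49 with the stricter filter and 605 and 782 with no filter. Of these calls 49.7% were higher, 72.4% with normexp, 60.8% with the stricter filter and 59.9% under median scaling, which moved the median of all genes by 0.090. No paired analysis was possible because each genotype has 1 array.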
